A study of Mus musculus with 4 samples.

Results

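OL-like (oligodendrocyte-like) tumor cells in the G2 and M phases of the cell cycle were examined in brain tumors of 4 hGFAP-cre::TP53Fl/Fl::lsl-MYCN mice. They numbered 1349 of 2596 OL-like tumor cells, of 5129 cells within the filters and of 11834 barcodes in all. The members were chosen by UMIs (unique molecular identifiers, each standing for 1 captured mRNA molecule) of named genes in each cell. A cell within the filters had 5000 to 40000 UMIs and less than 25% of them mitochondrial. It was called OL-like with at least 2 UMIs of the reporter genes FLUC (firefly luciferase) and humanNMYC (human MYCN), with a UMI of at least 3 of the 6 genes Bcas1, Olig1, Olig2, Sox10, Cldn11 and Cnp, and with a UMI of at most 1 of the 4 neuronal genes Stmn2, Neurod1, Stmn3 and Ina. An OL-like cell was a member, called a G2/M cell here, if at least 3 of the 7 genes Ccnb1, Cdc20, Ube2c, Cenpf, Cenpe, Plk1 and Tpx2 had a UMI. Every difference in RNA between G2/M cells and the other 1247 OL-like cells is therefore given as a description, with no test.

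All 4 mice carried hGFAP-cre, the floxed Trp53 alleles and the MYCN transgene on 1 allele, and each tumor was dissociated, freed of red blood cells and dead cells and sequenced by 10x Genomics 3′ chemistry. Mouse 4 and mouse 5 were 43 days old (P43), and mouse 6 and mouse 7 were 70 days old (P70). The P77 and P92 libraries were not analysed here, and no animal without the transgene was among the samples. Cre is driven by the human GFAP promoter, which is active in radial glia, so neurons, astrocytes and oligodendrocytes descend from recombined precursors, and a reporter transcript marks recombination rather than malignancy.

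The libraries held 15044263, 13106786, 18698291 and 40621958 UMIs in mice 4, 5, 6 and 7. Of these, 4432114, 3169060, 2082521 and 14025449 UMIs were in the 206, 127, 108 and 908 G2/M cells of the 4 mice. Mouse 7 thus gave most of the members, and all comparisons were made within or over mice rather than over pooled cells. Pairs of libraries shared 1 to 3 barcodes and no barcode of a G2/M cell. The labelled sexes of mouse 4 (female) and mouse 5 (male) went against the data. In cells without a reporter UMI, the Y-linked genes Kdm5d, Uty, Eif2s3y and Ddx3y reached together 189 CPM (counts per 1000000 UMIs) in mouse 4 and 0.365 CPM in mouse 5. In mouse 6 (labelled male) and mouse 7 (labelled female) they were at 172 CPM and 0 UMIs. Both mice in question are labelled P43. Reporter cells with at least 2 of the 4 neuronal genes numbered 6, 10, 27 and 624 in mice 4, 5, 6 and 7. The paper reports that neuroblast-like tumor cells appear at P70. Whether the labels of these or of other libraries were exchanged was not tested. An exchange across ages would change the age comparisons, which follow the labels.

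As background, a cell that has copied its DNA passes through G2 and then mitosis, in which cyclin B with the kinase CDK1 starts chromosome condensation and spindle assembly. Kinetochores, protein plates on the centromeres, attach chromosomes to spindle microtubules, and the spindle checkpoint holds the cell until all are attached. CDC20 then activates the anaphase-promoting complex (APC/C), a ubiquitin ligase that uses UBE2C to mark cyclin B and securin for destruction. Transcription of these genes peaks late in the cycle and depends on the MuvB complex with B-MYB and FOXM1, which is recruited through the CHR element, and on NF-Y, which binds CCAAT boxes. In the normal oligodendrocyte lineage, precursors divide and maturing cells leave the cycle before they make myelin.

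The promoters below are shown because they carry these motifs in genes that define the G2/M cells (Ube2c, Cenpf, Plk1) or stand out in them (Hmmr, Cdca8), beside the myelin gene Mog, which was lower in them and holds neither motif. Each runs from 250 bases before to 50 after the start of a RefSeq transcript (GRCm38.p6), 5′ to 3′. Capitals mark the CHR letters TTTGAA or TTCAAA and the CCAAT box letters CCAAT or ATTGG, on either strand.
Ube2c, chr2:164769679-164769978, plus strand: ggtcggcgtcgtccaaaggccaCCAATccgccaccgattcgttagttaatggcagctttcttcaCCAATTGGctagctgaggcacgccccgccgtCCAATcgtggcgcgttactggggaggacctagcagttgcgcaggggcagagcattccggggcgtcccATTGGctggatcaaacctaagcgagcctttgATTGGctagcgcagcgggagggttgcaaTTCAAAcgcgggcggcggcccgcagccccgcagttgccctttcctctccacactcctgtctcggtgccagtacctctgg
Cenpf, chr1:189688037-189688336, minus strand: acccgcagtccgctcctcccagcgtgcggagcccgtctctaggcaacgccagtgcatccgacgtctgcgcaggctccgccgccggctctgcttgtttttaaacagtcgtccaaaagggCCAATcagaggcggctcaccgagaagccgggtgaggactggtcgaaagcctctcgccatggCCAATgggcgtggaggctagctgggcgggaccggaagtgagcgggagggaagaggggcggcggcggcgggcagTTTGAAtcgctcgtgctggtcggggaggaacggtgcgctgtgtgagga
Plk1, chr7:122159185-122159484, plus strand: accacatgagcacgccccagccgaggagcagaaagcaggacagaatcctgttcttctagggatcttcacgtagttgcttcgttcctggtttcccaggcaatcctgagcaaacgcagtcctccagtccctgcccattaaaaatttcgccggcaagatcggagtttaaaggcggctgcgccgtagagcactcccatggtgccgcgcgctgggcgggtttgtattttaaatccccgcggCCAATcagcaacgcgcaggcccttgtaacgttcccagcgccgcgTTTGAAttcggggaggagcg
Hmmr, chr11:40733388-40733687, minus strand: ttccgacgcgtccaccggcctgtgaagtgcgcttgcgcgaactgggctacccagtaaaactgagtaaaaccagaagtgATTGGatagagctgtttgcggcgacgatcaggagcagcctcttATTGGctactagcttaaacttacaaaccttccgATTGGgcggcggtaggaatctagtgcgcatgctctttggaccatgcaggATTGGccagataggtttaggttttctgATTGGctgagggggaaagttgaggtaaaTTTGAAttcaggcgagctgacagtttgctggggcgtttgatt
Cdca8, chr4:124936868-124937167, minus strand: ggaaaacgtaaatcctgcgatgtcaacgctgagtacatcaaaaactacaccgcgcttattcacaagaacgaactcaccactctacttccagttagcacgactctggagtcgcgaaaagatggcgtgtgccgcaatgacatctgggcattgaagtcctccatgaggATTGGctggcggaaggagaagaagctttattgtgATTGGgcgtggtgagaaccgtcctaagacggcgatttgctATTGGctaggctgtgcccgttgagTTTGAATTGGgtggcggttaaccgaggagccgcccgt
Mog, chr17:37023349-37023648, minus strand: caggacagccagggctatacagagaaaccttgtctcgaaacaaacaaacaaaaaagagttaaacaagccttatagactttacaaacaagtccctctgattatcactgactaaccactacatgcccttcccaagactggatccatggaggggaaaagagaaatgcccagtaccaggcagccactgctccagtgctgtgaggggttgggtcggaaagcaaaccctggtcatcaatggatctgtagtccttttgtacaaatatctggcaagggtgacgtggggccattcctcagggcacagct
In the promoter of Cdca8 a CHR and a reversed CCAAT box share bases, and in that of Ube2c a forward and a reversed CCAAT box do.

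Promoter sequences were matched by symbol for 98 of the 119 genes that were at least 2-fold higher in G2/M cells of each mouse (below) and for 5486 of the 6742 genes compared. The CHR letters were in a promoter of 53 of the 98 genes (54.1%), against 14.1% of all genes compared that had a sequence. The CCAAT letters were in 73.5% of the 98 genes against 43.1%, and both motifs were in 45.9% against 6.11%. Among all 32851 promoters of this length in the table, some genes having several, 17.9% held CHR and 37.4% held CCAAT. Of the 6 rule genes with a sequence, 4 held CHR and 6 held CCAAT. Among spindle genes, 20 of 27 with a sequence held CHR and 20 held CCAAT, and among kinetochore genes 11 of 23 held CHR and 17 held CCAAT. For replication licensing and S phase, sequences matched 27 of 34 genes, under the 80% set for such a share, so the check is void there. Of the 27, 4 held CHR. The myelin list, with 14 of 22 genes matched, was under 80% too, with CHR in 1 and CCAAT in 5 of the 14. Of the 5 genes at least 2-fold lower in each mouse, 3 had a sequence, 1 with CHR and 0 with CCAAT. The promoters of Birc5 and Nusap1, among the genes that stood out most, held neither. These shares are descriptions of letters in a window, the higher genes were picked on the same cells, and no test was made.

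The 7 rule genes are given as values only, since they chose the cells. Ccnb1, which encodes cyclin B1, was at 132, 86.5, 80.2 and 157 CPM in G2/M cells of mice 4, 5, 6 and 7, and at 7.49, 2.57, 1.53 and 5.47 CPM in the other OL-like cells. Cdc20, the mitotic activator of the APC/C, was at 206, 171, 128 and 192 CPM in G2/M cells. Ube2c, the ubiquitin-conjugating enzyme of the APC/C, was at 285, 227, 237 and 347 CPM. Ccnb1 was the lowest of the 3 in each mouse. Cenpf and Cenpe, both of the outer kinetochore (CENPE is a plus-end-directed motor), were highest in mouse 7 at 477 and 339 CPM, with 266 to 306 and 208 to 253 CPM in the other mice. Tpx2, which brings Aurora A to the spindle, was at 162 to 260 CPM. Plk1, a kinase of mitotic entry and spindle assembly, was the least often found, in 39.3%, 54.3%, 44.4% and 39.6% of G2/M cells, and it had 0 UMIs in the other OL-like cells of mouse 5. Ube2c was found in 82.4% to 88.3% of G2/M cells and in 10.0% to 26.9% of the others.

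The cells did not spread evenly over the number of rule genes. In mouse 7, 469 OL-like cells had none of the 7 genes and 259 had all 7, with the fewest cells (123) at exactly 3 genes. In mouse 5 the most common number was 7 (45 of 205 cells). Just outside the rule, with 2 genes, were 33, 17, 9 and 166 cells of mice 4, 5, 6 and 7. Just inside it, with 3 genes, were 27, 20, 16 and 123 cells. As the plot of gene numbers shows, each mouse had a low between its cells with few and its cells with many of the genes, at 2 or 3 genes in mice 4, 5, 6 and 7.

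**Figure D1:**
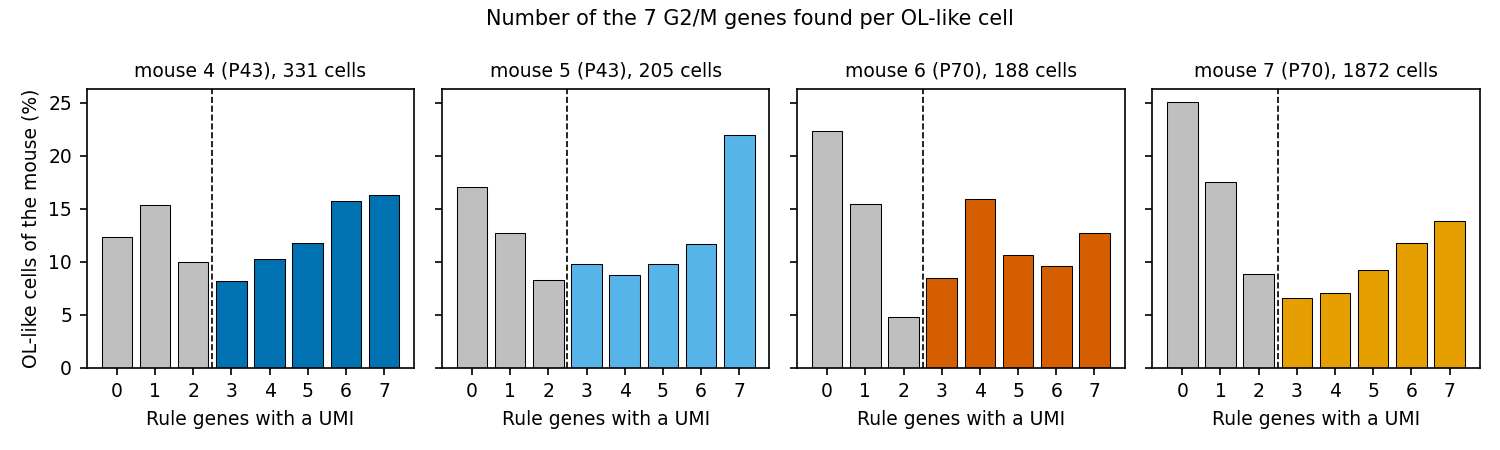
Share of OL-like cells of each mouse (y axis, %) by the number of the 7 rule genes with a UMI in the cell (x axis, 0 to 7). Colored bars right of the dashed line are G2/M cells, gray bars are the other OL-like cells. In mouse 7 the bars fall from 25.1% at 0 genes to 6.57% at 3 and climb to 13.8% at 7.

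Cells just inside the rule held mitotic RNA at levels between the ends. Hmmr, a spindle-associated protein outside the rule, was at a mean of 10.1 CPM (SD 9.86, n = 4 mice) in cells with 2 rule genes, 20.2 CPM (SD 5.95) with 3 and 261 CPM (SD 31.5) with 7. Aurka, the Aurora A kinase, was at 7.09, 11.3 and 103 CPM at the same steps. Kif20a, a motor of cytokinesis, was at 5.19 CPM with 2 rule genes and 76.8 CPM with 7. Genes of S phase differed among themselves. Rrm2, the regulated subunit of ribonucleotide reductase, was at 14.5 CPM with 2 rule genes, 65.9 CPM with 4 and 83.7 CPM with 7. Mcm5, a subunit of the replicative helicase, was at 39.2 CPM with 2 rule genes, 67.2 CPM with 4 and 67.3 CPM with 7. Ung, a uracil-DNA glycosylase of the G1 to S transition, was at a mean of 34.2 CPM (SD 9.86) with 3 rule genes and 8.05 CPM (SD 4.20) with 7, on 3 to 24 UMIs per mouse at 7. Among cells with 3 or more rule genes, those with all 7 had the least Ung in each mouse, but in mouse 5 cells with 1 rule gene had less (4.50 CPM against 13.7 CPM).

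**Figure D2:**
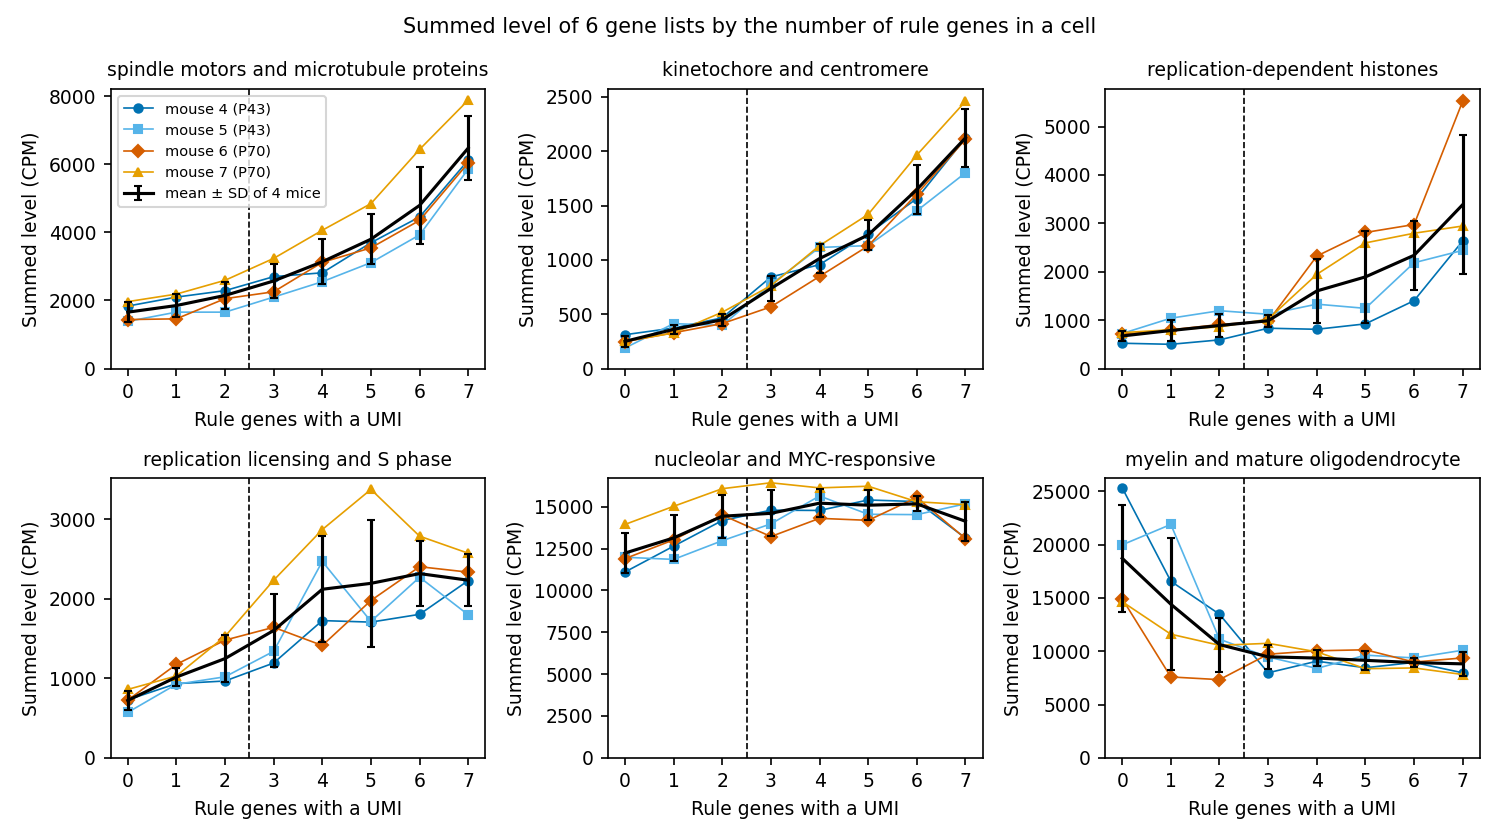
Summed level of 6 gene lists (y axis, CPM) in OL-like cells grouped by the number of rule genes with a UMI (x axis), each mouse as a colored line and the mean ± SD of 4 mice in black. Kinetochore RNA goes from a mean of 250 CPM at 0 genes to 2123 CPM at 7, S phase RNA is at 721 CPM at 0, 2118 CPM at 4 and 2232 CPM at 7 genes, and myelin RNA goes from 18718 CPM at 0 genes to 9474 CPM at 3 and 8814 CPM at 7.

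Of OL-like cells, 62.2% (206 of 331, 95% Clopper-Pearson interval 56.8% to 67.5%) were in G2/M in mouse 4, 62.0% (54.9% to 68.6%) in mouse 5, 57.4% (50.04% to 64.6%) in mouse 6 and 48.5% (46.2% to 50.8%) in mouse 7. The intervals cover counting error only. The mean was 57.5% ± 6.41 (SD, n = 4). The P70 mice were 9.12 percentage points below the P43 mice (exact two-sided permutation test, p = 0.333, the smallest p that 2 mice against 2 allow). The difference was -4.65 points without mouse 7 and -13.6 points without mouse 6. Depth was also higher in both P43 mice, with medians of 21014, 24636, 15879.5 and 12446 UMIs per OL-like cell in mice 4, 5, 6 and 7. When each cell was thinned to 5000 UMIs, the shares were 42.0%, 35.1%, 40.4% and 35.4% (mean 38.2% ± 3.51), and the difference between ages was -0.664 points (exact two-sided permutation test, p = 1). The share is thus a share of cells in which the genes were found, and at equal depth the ages overlapped.

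Cells of other types showed how often the rule was met outside the tumor cells, and whether those that met it were dividing was not tested. Among cells without a reporter UMI, 0 of 14, 0 of 25, 6 of 337 and 0 of 7 cells with at least 3 of 5 myeloid markers had 3 of the 7 genes. Vessel cells without a reporter UMI passed in 3.70%, 0.676% and 5.71% of cells in mice 4, 5 and 6 and in 1 of 5 cells in mouse 7. Vessel cells had median depths of 6138.5 to 8914 UMIs and myeloid cells of 6476 to 9675 UMIs, below those of OL-like cells, and vessel shares after thinning were 3.70%, 0.676% and 3.81% in mice 4, 5 and 6, with 1 of 5 cells again in mouse 7. Reporter cells with at least 2 of the 4 neuronal genes passed the rule in 74.7% of 624 cells in mouse 7 (55.4% after thinning), above the 48.5% of OL-like cells there (35.4% after thinning). In the other mice 3 of 6, 5 of 10 and 17 of 27 such cells passed, with the first 2 shares below those of the OL-like cells. After thinning 33.3%, 40.0% and 40.7% of them passed in mice 4, 5 and 6, against 42.0%, 35.1% and 40.4% of OL-like cells.

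G2/M cells had more UMIs than the other OL-like cells. Medians were 23585 against 15126 UMIs in mouse 4, 26933 against 18773.5 in mouse 5, 16558 against 14435.5 in mouse 6 and 14113 against 11233 in mouse 7, a mean ratio of 1.35 ± 0.183 (SD, n = 4). With the rule applied after thinning, the ratios were 0.880, 1.21, 0.592 and 1.11 in mice 4, 5, 6 and 7, a mean of 0.949. The depth of the members thus cannot be told apart from how they were found. Genes per cell at 5000 UMIs differed little, with medians of 2173.5 and 2106 in mouse 4 and of 2278 and 2230 in mouse 7. Mitochondrial shares had medians of 3.93% to 5.32% in G2/M cells and of 5.27% to 5.59% in the others. The reporters, which also chose the OL-like cells, are given as values only. Median reporter UMIs per cell were 13, 61, 33 and 20 in G2/M cells and 9, 41.5, 26.5 and 17 in the others. Per UMI, FLUC was at 743, 1946, 1854 and 1058 CPM in G2/M cells and humanNMYC at 275, 1307, 1521 and 687 CPM, and their log2 ratios to the other cells lay on both sides of 0 over the mice.

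The label of the cells was checked on markers outside the rule. Cdk1, the partner kinase of cyclin B, was at 95.9, 85.5, 137 and 101 CPM in G2/M cells against 8.98 to 10.8 CPM in the others, and Ccnb2 and Aurka were higher in G2/M cells of each mouse. Pdgfra, a receptor of early oligodendrocyte precursors, was near 0 at 0.226, 0, 0 and 1.71 CPM in G2/M cells. Gpr17, a receptor of committed precursors, was at 113, 83.3, 109 and 88.6 CPM, and Mbp, a major protein of compact myelin, at 1612 to 2215 CPM. Markers of other cell types summed to little in G2/M cells. The 5 myeloid genes reached 2.52 to 31.7 CPM, the 5 lymphoid genes 0.143 to 1.89 CPM with Cd3g, Nkg7 and Ms4a1 at 0 UMIs, and the 4 neutrophil genes 0 to 7.68 CPM. The 6 vessel genes reached 3.85 to 47.6 CPM (most abundant Flt1) and the 5 astrocyte genes 17.0 to 48.3 CPM (most abundant Aldoc). In the other OL-like cells of mouse 6 the vessel genes reached 277 CPM and the astrocyte genes 201 CPM. Of the 4 globin genes, Hba-a2, Hbb-bs and Hbb-bt had no UMI.

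For each gene outside the rule with at least 20 CPM in G2/M or other OL-like cells (mean over mice), the log2 ratio of G2/M over other cells was taken in each mouse after adding 10 CPM to both. Of 6742 genes, 119 (1.77%) were at least 2-fold higher in each of the 4 mice and 5 (0.0742%) at least 2-fold lower. Above 0 in each mouse were 1527 genes (22.6%) and below 0 in each were 1424 (21.1%). These percentages are the background for the lists, and since the rule used the same cells, nothing is read from them. Of the 119 genes, 89 were in one of the lists described here, which were drawn up with earlier results known, and 30 were in none.

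The genes with the largest smallest ratio were Hmmr, Top2a, H1f5, Cdca8, Birc5, Nusap1, Knl1, Mki67, Hmgb2 and Ccna2. Hmmr (chr11:40701395-40733422) was at 134, 143, 121 and 184 CPM in G2/M cells of mice 4, 5, 6 and 7 and at 3.75, 0, 4.58 and 3.47 CPM in the others, a log2 ratio of 3.16 to 3.93. Top2a (chr11:98992943-99024189), the topoisomerase that untangles sister chromatids, was at 345, 340, 441 and 685 CPM against 22.9 to 41.2 CPM. Each G2/M value lay above each value of the other cells for both genes. Mki67 (chr7:135689784-135716361), which coats mitotic chromosomes and is the antigen of the Ki67 stain, was at 152 CPM in mouse 4 and at 319, 341 and 358 CPM in the other mice. Hmgb2, a chromatin protein, was the most abundant of the 10 at 1110 to 1411 CPM against 142 to 206 CPM. H1f5, a linker histone with close relatives among the H1 genes, was at 202 and 182 CPM in the P43 mice and at 438 and 495 CPM in the P70 mice.

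Among genes that attach and move chromosomes, a group that holds several rule genes, most were higher. Of 27 kinetochore and centromere genes, 22 had enough RNA, 17 were at least 2-fold higher in each mouse and all 22 were above 0 in each. Cenpa, the histone that marks centromeres, was at 235, 166, 143 and 252 CPM against 14.5 to 33.7 CPM, and Ndc80 and Spc25, of the microtubule-binding complex, at 36.3 to 61.2 CPM and 49.2 to 85.3 CPM. Zwint, a kinetochore linker that neurons also express, had log2 ratios of 0.12 to 0.56 only. Of 12 genes of the spindle checkpoint and the chromosomal passenger complex, 9 were at least 2-fold higher. All 4 subunits of the passenger complex (Aurkb, Birc5, Incenp, Cdca8) were among them, with Cdca8 at 191 to 337 CPM and Birc5 (survivin) at 198 to 287 CPM. Of the checkpoint genes, Bub1 had a log2 ratio of 2.32 to 2.61, Bub3 of 0.39 to 0.70, and Mad1l1 lay on both sides of 0.

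Of 27 spindle motor and microtubule genes with enough RNA, 19 were at least 2-fold higher and 27 above 0 in each mouse. Kif11, the motor that separates spindle poles, was at 41.1, 83.3, 61.5 and 152 CPM against 2.57 to 3.30 CPM, with mouse 7 the highest and mouse 4 the lowest. Prc1, which bundles the central spindle, had log2 ratios of 2.38 to 3.50. The tubulin gene Tuba1b, which all cells use, had smaller ones of 0.98 to 1.24, and Stmn1, which destabilizes microtubules and was the most abundant of the list, of 0.42 to 1.02. Of 11 cytokinesis genes, which share Prc1 and Kif23 with the spindle list, 7 were at least 2-fold higher, among them Racgap1 (104 to 161 CPM) and Ect2 (23.5 to 50.1 CPM), which activate the contractile ring. Anln, an anillin also expressed in myelinating glia, was at 31.9 to 71.5 CPM in the other cells and had log2 ratios of 0.47 to 0.81.

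**Figure D3:**
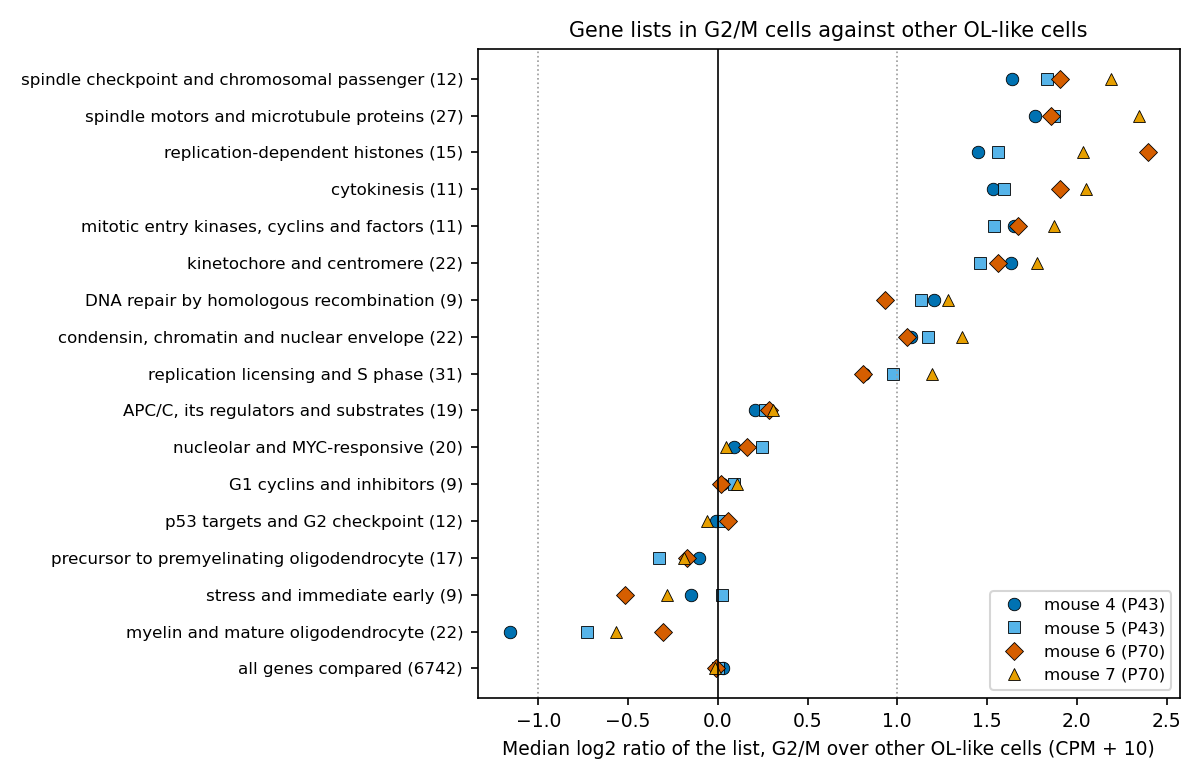
Median log2 ratio of G2/M over other OL-like cells (x axis, CPM with 10 added) for each gene list (y axis, genes with enough RNA in parentheses) in each mouse. Lists of chromosome segregation lie between 1.46 and 2.35, S phase between 0.81 and 1.19, and the myelin list below 0 in each mouse.

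Genes that start and end mitosis differed among themselves. Of 11 genes of mitotic entry with enough RNA, 7 were at least 2-fold higher, including Cdk1, Ccna2, Ccnb2, Aurka, Nek2 and Cdc25c, and all 11 were above 0 in each mouse. Foxm1 and Mybl2, which encode the transcription factors FOXM1 and B-MYB, were low at 20.5 to 34.7 and 12.0 to 27.6 CPM, with log2 ratios of 0.97 to 1.65 and 0.83 to 1.60. Of 19 genes of the APC/C, its regulators and substrates, 1 (Espl1, the separase that cuts cohesin) was at least 2-fold higher in each mouse and 11 were above 0 in each. Pttg1, securin, had log2 ratios of 1.91, 0.97, 1.83 and 1.06. The core subunits had smaller ratios, as for Anapc11 with 0.16, 0.21, -0.09 and 0.31. The summed level of the list was 1337 to 1713 CPM in G2/M and 1078 to 1315 CPM in other cells.

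S phase RNA was higher as well. All 31 genes of replication licensing and S phase with enough RNA were above 0 in each mouse, and 7 were at least 2-fold higher, with list medians of 0.81, 0.98, 0.81 and 1.19. Rrm2 was at 49.2 to 115 CPM against 3.85 to 10.9 CPM. Pcna, the sliding clamp, was at 202, 147, 201 and 259 CPM against 91.7 to 111 CPM. At 5000 UMIs, 95.6%, 91.3%, 88.9% and 94.2% of G2/M cells held at least 3 of the S phase genes, and so did 64.8%, 61.5%, 67.5% and 63.9% of the others. As background, 14.3% to 26.1% of reporter-free myeloid cells did, and 31.5%, 20.3% and 27.6% of vessel cells in mice 4, 5 and 6 (3 of 5 cells in mouse 7). Of 9 genes of homologous recombination, 9 were above 0 in each mouse and 3 were at least 2-fold higher, Rad51ap1 and Fancd2 among them. Fancd2 lies near the transgene locus described with age below. All 22 genes of condensin, chromatin and the nuclear envelope were above 0 in each mouse and 11 were at least 2-fold higher, with medians of 1.05 to 1.36.

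Histone RNA was higher in G2/M cells. Of 15 replication-dependent histone genes with enough RNA, 10 were at least 2-fold higher in G2/M cells and 13 above 0 in each mouse. Most of these mRNAs end in a stem loop and lack the poly(A) tail that the 3′ method captures, and copies of a histone share sequence, so single genes are uncertain. The list summed to 1586 and 1907 CPM in G2/M cells of the P43 mice and to 3287 and 2498 CPM in those of the P70 mice, against 537 to 934 CPM in the other cells. The G2/M sums of the ages did not overlap and those of the other cells did. No test was made on the sums, and nothing is read from this. An exact permutation test of 2 mice against 2 cannot go below p = 0.333. No gene of the histone list was called for age by state. With its filter on low genes edgeR called no histone gene with age, while DESeq2 called H1f5 and H1f4 (below). H2bc4 lay on both sides of the other cells, with 306 to 529 CPM in G2/M and 263 to 516 CPM in other cells.

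Lists tied to growth and to p53 had medians near 0. Medians of 20 nucleolar and MYC-responsive genes were 0.09, 0.24, 0.16 and 0.05, and none was 2-fold higher in each mouse. Of the 20, 12 were above and 0 below 0 in each mouse, against 22.6% and 21.1% of all genes compared. With 10 reporter UMIs required, 7 were above and 1 was below 0 in each. Npm1, a nucleolar chaperone, was at 3582 to 4624 CPM in G2/M cells and had log2 ratios of 0.09 to 0.27. Odc1, of polyamine synthesis, had the larger ones of 0.34 to 0.73. Of 12 p53 target and G2 checkpoint genes, 3 were above and 2 below 0 in each mouse, with medians of -0.06 to 0.06. Cdkn1a, the p21 inhibitor and a main p53 target, was at 0.631 to 3.36 CPM in G2/M cells. Ccnd1, the D cyclin of G1, was at 89.3, 81.7, 117 and 20.7 CPM in G2/M cells and at 97.0, 75.7, 158 and 28.8 CPM in the others. Of 9 G1 genes, none was 2-fold higher or lower in each mouse. Of 9 stress and immediate early genes, 1 was above and 3 below 0 in each mouse, with medians of -0.52 to 0.02.

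Myelin genes were lower in G2/M cells. Of 22 myelin and mature oligodendrocyte genes, 16 were below 0 in each mouse and 0 above, against 21.1% of all genes compared that were below 0. The list medians were -1.16, -0.73, -0.30 and -0.57. Mog (chr17:37010743-37023398), on the outer face of myelin, was the only one at least 2-fold lower in each mouse, at 8.80, 43.5, 5.76 and 31.1 CPM in G2/M cells and 116, 136, 42.8 and 73.9 CPM in the others. Mbp was at 2215, 1748, 1612 and 1661 CPM in G2/M cells and 3142, 2905, 2012 and 2432 CPM in the others, lower in G2/M cells of each mouse. Its log2 ratios were -0.73 to -0.32. Dusp15, Sparc, Kcna1, Paqr8 and Rab3a, with log2 ratios of -2.12 to -0.78, were with Mog among the 10 genes that ranked lowest by the ratio in the mouse where it was closest to 0. The other genes at least 2-fold lower in each mouse were Pdlim2, Apoe, Ptprd and Cntn2. Apoe, a lipid carrier of glia and macrophages, was at 13.8, 12.9, 145 and 63.5 CPM against 101, 141, 423 and 161 CPM. Without the 1 other cell with the most Apoe in each mouse, the ratios were -1.97, -2.32, -0.94 and -0.97, no longer 2-fold in the P70 mice, and reporter-free myeloid cells held 13834 to 59696 CPM of it. Cntn2, an adhesion protein of myelinated axons and their glia, was at 3.16, 31.6, 4.32 and 42.6 CPM against 29.98 to 104 CPM. Of 17 genes of precursor to premyelinating oligodendrocytes, 9 were below and 1 above 0 in each mouse, with medians of -0.33 to -0.10.

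The myelin difference moved with the number of reporter UMIs. Among other OL-like cells with 2 to 9 reporter UMIs, the myelin list summed to 29456, 32150, 14898 and 19483 CPM in mice 4, 5, 6 and 7, among those with 10 to 29 to 10970, 32733, 15613 and 11757 CPM, and among those with 30 or more to 13982, 12137, 9122 and 9173 CPM. The level was thus lower from 10 UMIs on in mice 4 and 7 and from 30 on in mice 5 and 6. In G2/M cells it was at 8595 to 11099 CPM with 2 to 9 reporter UMIs and at 8104, 9504, 9753 and 6954 CPM with 30 or more, where mouse 6 had more in G2/M than in other cells. Of the other cells, 53.6%, 25.6%, 12.5% and 29.1% had fewer than 10 reporter UMIs, against 40.3%, 6.30%, 22.2% and 20.3% of G2/M cells. With 10 reporter UMIs required of every cell, 0 genes were at least 2-fold lower in each mouse, 14 of 21 myelin genes were below 0 in each, and the list medians were -0.52, -0.66, -0.25 and -0.42. The part that normal oligodendrocytes with stray reporter RNA, or doublets, have in the difference was not tested. The counts of higher genes held (124 with 10 reporter UMIs, 114 of them among the 119).

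**Figure D4:**
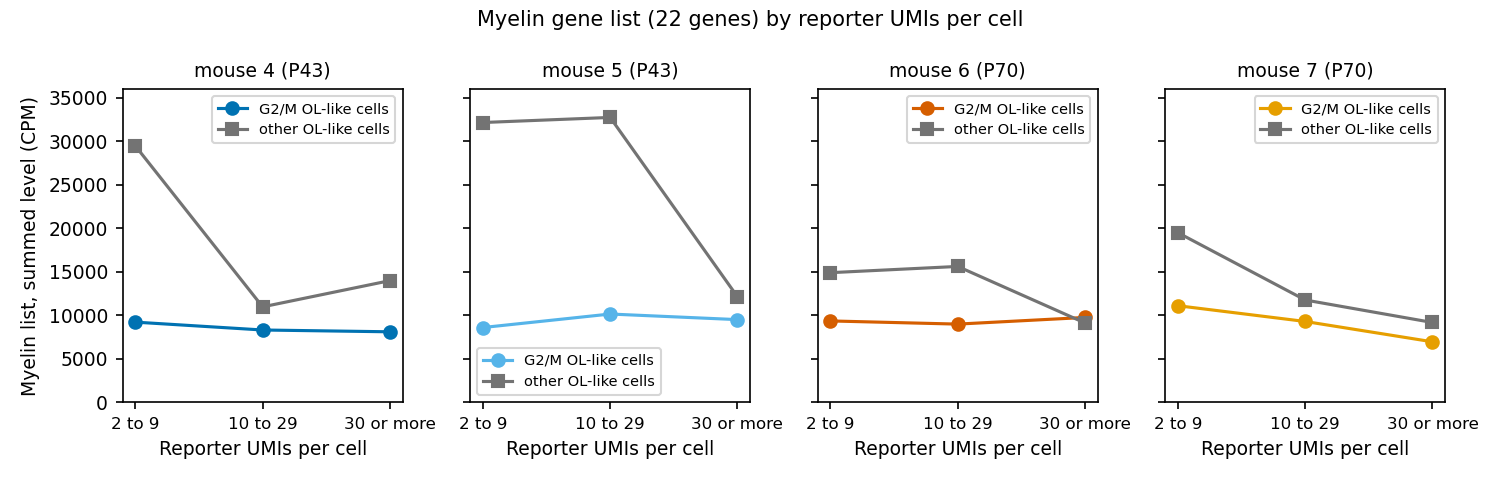
Summed level of the 22 myelin genes (y axis, CPM) by the number of FLUC and humanNMYC UMIs in a cell (x axis), in G2/M cells (colored) and other OL-like cells (gray) of each mouse. Other cells with 2 to 9 reporter UMIs reach 14898 to 32150 CPM, whereas G2/M cells stay between 6954 and 11099 CPM in all bins.

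Age was not used to choose the cells and was tested over the 4 mice. Of 10650 genes tested in G2/M cells, 0 (0%) differed between P43 and P70 at an adjusted p under 0.05 by edgeR's quasi-likelihood test, and 423 (3.97%) had an unadjusted p under 0.05. DESeq2 called 26 (0.244%), 15 higher and 11 lower at P70. The lowest p by edgeR was that of Hexim1, an inhibitor of transcription elongation, at 82.1 and 84.6 CPM at P43 and 9.60 and 14.2 CPM at P70 (log2 -2.84, SE 0.26, adjusted p = 0.533 by edgeR and 1.48e-09 by DESeq2). Next was Hes5, a Notch target of neural precursors, at 14.4 and 13.9 CPM at P43 and 107 and 83.4 CPM at P70 (log2 2.68, SE 0.27, adjusted p = 0.533 by edgeR and 2.10e-08 by DESeq2). The ages did not overlap for either gene. With no filter on low genes edgeR called 202 genes, and all 26 genes of DESeq2 were among them, so these calls depend on the tool and the filter. H1f5 and H1f4 were also called by DESeq2 (log2 1.21 and 1.12, adjusted p = 0.00733 and 0.0142) and by edgeR only without the filter (adjusted p = 0.957 for both with it).

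Of the 11 genes that DESeq2 called lower at P70, 5 (Cpne9, Camk1, Il17re, Creld1 and Vhl) lie within 1 Mb of Rosa26 (chr6:113067428-113077244, RefSeq GRCm38.p6), where the transgene is inserted. This set was looked up after the values had been seen. Among the 26 tested genes of that interval, 24 had a negative change by DESeq2, against 50.9% of all genes tested, and the median was -1.84 against -0.01. Both P43 mice lay above both P70 mice for 19 of the 26, against 10.2% of all genes tested. The levels followed the mouse and the place. Setd5, next to Rosa26, was at 708, 1089, 445 and 858 CPM in G2/M cells of mice 4, 5, 6 and 7. Brk1, 527.5 kb away on the side of the higher coordinates, was at 1900, 2503, 1037 and 275 CPM, and Sec13, 650.8 kb away, at 920, 1304, 676 and 116 CPM. On the other side, Rad18, 370.7 kb away, was at 28.2, 399, 624 and 629 CPM. In cells without a reporter UMI, Brk1 was at 236.5 to 303 CPM, Sec13 at 62.9 to 113 CPM and Setd5 at 95.6 to 191 CPM. For these 3 genes the other OL-like cells had the same order of mice as the G2/M cells, with Brk1 at 1586, 2138, 719 and 289 CPM. In mouse 7, Brk1 and Sec13 were thus near the reporter-free level while Setd5 was well above it, and mouse 4 had the lowest Rad18. The reporter-free reference is weak in mouse 7, where it rests on 80 cells. Rad18 was at 117 CPM in them, against 5.93 to 9.49 CPM in reporter-free cells of the other mice. In all the mouse tumors that the paper examined for copy number, it reports an amplification at Rosa26, which it attributes to the genetic engineering. DNA copy number was not measured in these libraries and its part was not tested. With 2 mice per age, age and the single tumor cannot be told apart here.

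Whether age acted differently in G2/M cells than in the other OL-like cells was examined in 1 model over both states, in which each mouse kept its own level and age by state was the term tested. Of 10868 genes, 9 (0.0828%) were called by edgeR, of which 8 had a positive term, a smaller shortfall of G2/M cells at P70 than at P43. That split was not kept throughout. At 5000 UMIs 6 genes were called, 2 with a positive and 4 with a negative term, and 2 of the 9 were among them. With 10 reporter UMIs 6 terms were positive and 7 negative, and without mouse 7 there were 35 and 33. The 5 with the lowest p were Apoe, Stmn4, Opalin, Rgs5 and Mal. Opalin, a membrane protein of mature oligodendrocytes, was at 6.54, 0.947, 0.960 and 33.9 CPM in G2/M cells and at 58.6, 19.2, 4.58 and 56.6 CPM in the others (log2 2.55, SE 0.35, edgeR adjusted p = 0.00466). Mal, a myelin lipid-raft protein, was at 214, 141, 70.6 and 122 CPM against 833, 636, 115 and 256 CPM (log2 1.10, SE 0.16, edgeR adjusted p = 0.00576). In both genes the other cells of each mouse held more RNA than its G2/M cells.

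Apoe had an interaction of 1.71 (SE 0.20, edgeR adjusted p = 0.00193) with log2 ratios of -2.22, -2.72, -1.48 and -1.22 in mice 4, 5, 6 and 7. In the other cells of mouse 6, 183 of its 553 UMIs were in 1 cell. For Mal 399 of 1778 UMIs in mouse 4 and 279 of 992 in mouse 5 were in 1 cell, and for Ptgds 373 of 955 in mouse 5. With the top other cell of each mouse left out, both P70 ratios still lay above both P43 ratios for Apoe, Mal and Ptgds. The model was not refitted without these cells. Stmn4, a stathmin of neurons and oligodendrocytes, had 1.99 (SE 0.25, edgeR adjusted p = 0.00258) with ratios of -2.57, -2.10, -0.33 and -1.01. In mouse 6 the ratio of Stmn4 rests on 2 UMIs in G2/M and 5 in other cells, 4 of them in 1 cell, and is set by the 10 CPM added. Opalin had 2 and 6 UMIs there. Rgs5, a marker of pericytes, had -5.36 (SE 0.76, edgeR adjusted p = 0.00566), but 295 of its 300 UMIs in the other cells of mouse 6 were in 1 cell. Fam13c, Gria2 and Ptgds were also called. With 10 reporter UMIs required, 13 genes were called and 4 of the 9 were among them, Stmn4, Opalin and Rgs5 included, while Apoe (edgeR adjusted p = 1, range over 14 alternatives 2.78e-12 to 1) and Mal (edgeR adjusted p = 0.390, range 2.21e-08 to 1) were not. Of 22 myelin genes 3 were called, against 0.0828% of all genes tested, and no gene in the lists of mitosis, S phase or histones was. No test of a difference between lists was made. The median term was 0.43 over the myelin list (20 of 22 above 0) and 0.59 over the histone list (14 of 16). It was 0.46 over the mitotic entry list (14 of 16), 0.43 over cytokinesis (13 of 14) and 0.39 over the spindle (23 of 30). For the kinetochore it was 0.35 (22 of 27), and for S phase 0.06 (22 of 34). Over all genes tested it was -0.01 (5276 of 10868 above 0).

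**Figure D5:**
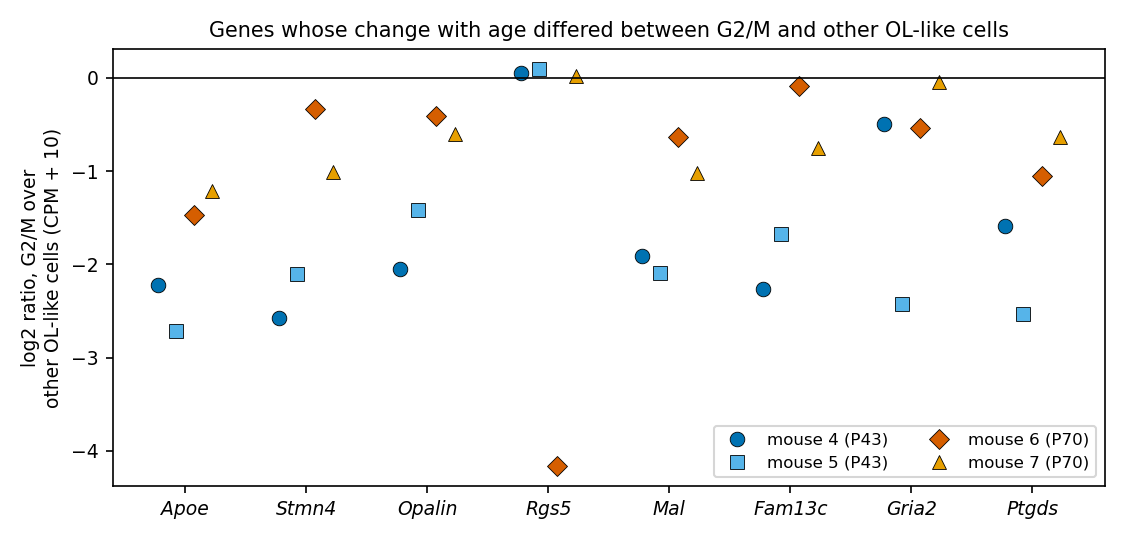
Log2 ratio of G2/M over other OL-like cells (y axis, CPM with 10 added) in each mouse for 8 genes (x axis) whose change with age differed between the states. In 6 of them, all but Rgs5 and Gria2, both P70 mice lie above both P43 mice, and the value of Rgs5 in mouse 6 (-4.16) rests on 1 cell.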

How the data were processed

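Single-cell 3′ libraries of 4 tumors (2 mice per age) were analysed from the deposited UMI counts per gene and cell, which the authors made with Cell Ranger (version 6.0.2 per the labels) on mm10 with FLUC and humanNMYC added. Depths are given with the libraries. The members and gene lists were chosen with earlier results of these data known. Cells were kept by the limits given above, no doublet caller was run, and UMIs were summed per mouse for G2/M and other OL-like cells. Log2 ratios used CPM with 10 added, for genes with at least 20 CPM. Age was tested on summed counts with edgeR 4.0.16 (quasi-likelihood, TMM, filterByExpr, Benjamini-Hochberg adjusted p under 0.05), with DESeq2 1.42.0 as an alternative (R 4.3.3). Other values used Python 3.11.15, numpy 2.4.6, scipy 1.17.1 and pandas 2.3.3, and figures matplotlib 3.10.9. Alternatives changed the rule, the filters, the depth (5000 UMIs), the added CPM, the normalization or the mice, and 10 reporter UMIs and ratios without a gene's top cell were added after seeing the data. Named genes were the 10 with the highest lowest ratio and the 10 lowest over the mice, the rule genes, list members as examples chosen after their values were seen, and those with the lowest p. In simulated data with 200 genes changed 4-fold, edgeR recovered 152 (76%) for age in G2/M cells, with 10614 genes tested. For age by state it recovered 186 (93%), with 10990 tested. Of the genes called there, 12 of 164 (7.32%) were false for age and 5 of 191 (2.62%) for age by state. Every simulated gene had the same spread (dispersion 0.0871 for age and 0.00623 for age by state), which real genes need not follow. The shares recovered are therefore not the power of the tests on the real data. Gene positions are from GENCODE annotation of GRCm38 and promoters from RefSeq GRCm38.p6. Some genes are counted in the totals and not reported here by name. The mice are separate animals.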

Additional observations from a re-analysis of the deposited data

Results flagged for a closer look

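For 8 genes the change with age differed between G2/M and other OL-like cells in a test of that difference itself (edgeR, adjusted p under 0.05). The log2 terms were 1.71 for Apoe, 1.99 for Stmn4, 2.55 for Opalin, -5.36 for Rgs5, 1.1 for Mal, 2.3 for Fam13c, 5.16 for Gria2 and 1.24 for Ptgds. Of the 14 alternatives, the sign was kept in 14 for each gene but Rgs5, for which it was kept in 12. The call was kept less often, in 13 alternatives for Fam13c, 12 for Apoe, 11 for Stmn4 and Rgs5, 10 for Opalin, 9 for Mal and 8 for Gria2 and Ptgds. The highest edgeR or DESeq2 adjusted p was 0.193 for Fam13c, 0.427 for Gria2, 0.938 for Stmn4, 0.956 for Opalin and 1 for Apoe, Rgs5, Mal and Ptgds. In mouse 5, 71 UMIs of Gria2 were in other OL-like cells and 1 was in G2/M cells.

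Cells above the limit of 40000 UMIs were outside the comparisons. Of 112 OL-like cells above it, 102 (91.1%) passed the G2/M rule, 32 of 34 in mouse 4, 31 of 33 in mouse 5, 31 of 37 in mouse 6 and 8 of 8 in mouse 7. The rule finds more cells at greater depth, and with each of these cells thinned to 5000 UMIs 70 of 112 (62.5%) passed, against 35.1% to 42.0% of the OL-like cells within the limit. Doublets were not called, and their part was not tested.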

How the results depend on the processing

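The mean share of OL-like cells in G2/M was 65.5% with 2 of 7 genes required, 49.3% with 4 and 38.2% at 5000 UMIs, where the ratio of UMIs per cell was 0.949. Genes at least 2-fold higher in each mouse numbered 25 with 50 CPM added and 101 to 160 under the other alternatives. Genes at least 2-fold lower numbered 3 at 5000 UMIs, 0 with 10 reporter UMIs, 13 with 1 CPM added, 0 with 50 CPM added, 9 against cells with none of the 7 genes, and 5 to 7 when a mouse was left out. Genes called with age in G2/M cells numbered 26 by DESeq2, 202 with no gene filter (all 26 among them), and 0 to 1 when a mouse was left out. Genes called for age by state numbered 17 with 2 of 7 genes, 5 with 4 of 7, 36 with 4 of 6 oligodendrocytic genes, 3 by DESeq2, 79 with no gene filter, 17 without TMM and 47 to 87 when a mouse was left out, with 7 to 9 of the 9 genes among them. The lone mouse of an age was then assumed to vary like the others. The causes were not tested. No paired analysis was possible because the 2 ages share no replicate number. With 2 mice per age, the share could not reach p under 0.333, and 108 and 127 G2/M cells in mice 6 and 5 limit low genes there.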
